A study of Homo sapiens with 6 samples.

Results

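The 9 genes described here encode the machinery that builds iron-sulfur clusters in mitochondria: ISCU, NFS1, LYRM4, HSCB, GLRX5, ISCA1, ISCA2, BOLA3 and NFU1. They were chosen by gene symbol among the 58825 genes of the deposited table, and each symbol matched 1 row. RNA was measured in MDA-MB-231, an established line of human breast carcinoma that lacks hormone receptors and HER2, in 3 libraries after 24 h in disulfiram with copper (DSF/Cu, 0.2 µM) and 3 libraries after the vehicle DMSO. The labels do not say whether the dose refers to disulfiram, copper or their complex, and there was no library with either agent alone. Each library pooled the cells of 3 wells, and both groups came from the same line. The labels do not state that the repeats were grown apart, and the p-values therefore reflect only how far these 6 libraries scatter, which may be technical.

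Iron-sulfur clusters are inorganic cofactors that carry electrons, shape active sites and hold DNA-processing enzymes together. In mitochondria NFS1, a cysteine desulfurase stabilised by LYRM4, supplies sulfur to the scaffold ISCU, on which the first cluster forms. The co-chaperone HSCB and the mitochondrial HSP70 HSPA9 release that cluster to the monothiol glutaredoxin GLRX5. The late-acting proteins ISCA1 and ISCA2 convert it into the larger cubane cluster, and NFU1 and BOLA3 deliver clusters to selected recipients such as lipoyl synthase. Disulfiram's main metabolite binds copper and carries it into cells, and in bacteria copper is known to damage exposed clusters.

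After DSF/Cu, BOLA3 was 1.66-fold lower, GLRX5 was 1.34-fold lower and ISCA2 was 1.26-fold lower. The scaffold gene ISCU was 1.29-fold higher. The other 5 genes (NFS1, LYRM4, HSCB, ISCA1 and NFU1) were not called. A gene was called at a Benjamini-Hochberg adjusted p under 0.05 in edgeR's quasi-likelihood test over all 18229 genes tested, which included all 9. Of all genes tested, 35.2% were called, 18.5% as higher and 16.8% as lower. The 9 genes gave 1 higher and 3 lower, 44.4% in all, a share near that background. Changes are relative to TMM scaling, a library scaling that sets the bulk of genes level. With total-count scaling the median log2 change of all genes was -0.18 in place of 0.00227, and ISCU was then not called (log2 change 0.18, edgeR adjusted p = 0.0556).

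The promoters of the 4 called genes are shown because ISCU moved opposite to the other 3. Sequences are RefSeq's on GRCh38.p14, from 250 bases before the annotated start site to 50 after it. Capitals mark matches, on either strand, to any of 5 motifs that were searched.
ISCU, chr12:108562346-108562645, + strand: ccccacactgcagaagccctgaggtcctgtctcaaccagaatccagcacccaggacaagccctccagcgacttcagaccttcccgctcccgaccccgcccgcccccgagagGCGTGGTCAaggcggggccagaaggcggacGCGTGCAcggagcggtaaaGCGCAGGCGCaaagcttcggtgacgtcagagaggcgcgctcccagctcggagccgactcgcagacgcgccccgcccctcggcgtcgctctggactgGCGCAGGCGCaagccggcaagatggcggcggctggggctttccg
BOLA3, chr2:74147863-74148162, - strand: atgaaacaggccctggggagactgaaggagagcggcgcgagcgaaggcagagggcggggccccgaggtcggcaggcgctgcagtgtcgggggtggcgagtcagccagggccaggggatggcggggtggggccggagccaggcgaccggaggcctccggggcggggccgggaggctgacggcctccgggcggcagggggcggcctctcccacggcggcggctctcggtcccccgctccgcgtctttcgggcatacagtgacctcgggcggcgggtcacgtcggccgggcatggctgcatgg
GLRX5, chr14:95534800-95535099, + strand: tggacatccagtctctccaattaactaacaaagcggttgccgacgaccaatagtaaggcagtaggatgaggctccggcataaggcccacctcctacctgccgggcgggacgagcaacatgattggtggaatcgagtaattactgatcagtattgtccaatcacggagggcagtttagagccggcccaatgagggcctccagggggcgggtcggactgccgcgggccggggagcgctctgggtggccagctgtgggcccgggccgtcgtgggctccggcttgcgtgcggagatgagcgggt
ISCA2, chr14:74493515-74493814, + strand: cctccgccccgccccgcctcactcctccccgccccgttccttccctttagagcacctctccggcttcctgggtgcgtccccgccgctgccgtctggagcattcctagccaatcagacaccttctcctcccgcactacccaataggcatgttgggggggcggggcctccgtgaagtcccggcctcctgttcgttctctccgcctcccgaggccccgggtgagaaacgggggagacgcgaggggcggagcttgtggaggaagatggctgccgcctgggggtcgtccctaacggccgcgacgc
The ISCU window held 4 matches and the windows of BOLA3, GLRX5 and ISCA2 held 0. In ISCU, GCGTGGTCA beginning at -139 matched the antioxidant response element (TGACNNNGC, bound by NRF2), and GCGTGCA at -109 matched the metal response element (TGCGCNC or TGCACNC, bound by MTF1). GCGCAGGCGC stood at -90 and again at 7 bases into the transcript, and matched the element of NRF1, a regulator of nuclear genes for mitochondria (GCGCA and GCGC with 1 base between them). The metal response and NRF1 motifs share letters and can overlap.

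All 9 genes had a RefSeq promoter, some with several starts, giving 12 windows. The antioxidant response element was in 1 of the 12 (ISCU), against 13.3% of all 35116 promoters of the same length. The metal response element was in 3 of the 12 (ISCA1, ISCU and LYRM4), against 29.6% of all promoters. The NRF1 element was in 1 (ISCU, 5.78% of all promoters), and the ATF4 amino acid response element (TGATGNAA) in 1 (LYRM4, 3.62% of all). The heat shock element (GAA, TTC and GAA, or TTC, GAA and TTC, with 2 bases between neighbours) was in 0 of the 12 windows and in 0.49% of all promoters. These matches describe the letters in the windows only. G and C made up 70.3% of the ISCU window, 71.3% of that of ISCA1 and 72.0% of that of LYRM4. The windows of BOLA3 (76.3%), ISCA2 (69.3%) and GLRX5 (62.0%) held no match. The median over all promoters was 58.7%, so the shares of all promoters are not matched for base content. Its part in the matches was not tested. The GLRX5 window lies inside the gene span given in the deposited table, which starts at chr14:95533503, upstream of the RefSeq start.

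Total counts per library were 55563223 to 61633168 after DSF/Cu and 62165212 to 70883177 in DMSO. The 9 genes held from 305 to 6159 counts per library. The line's mesenchymal marker VIM stood at 2734 ± 179 CPM (counts per 1e6 of the TMM-scaled library size; SD, n = 3) after DSF/Cu and 3297 ± 213 CPM in DMSO (called lower, edgeR adjusted p = 0.0208). Of the 3 other markers that the line expresses, AXL was called 1.69-fold lower (652 ± 17.0 CPM after DSF/Cu, 1101 ± 47.4 CPM in DMSO), and CD44 (338 ± 18.2 CPM after DSF/Cu, 294 ± 23.1 CPM in DMSO) and CAV1 (160 ± 62.9 CPM after DSF/Cu, 297 ± 139 CPM in DMSO) were not called. The receptors ESR1 and PGR, which the line lacks, were at most 1.09 CPM in any library. Of 5 immune markers, CD3E and LYZ had no count in any library. The summed immune list was 1.16 to 2.46 CPM after DSF/Cu and 0.121 to 0.448 CPM in DMSO, most of it CD14 (called higher, edgeR adjusted p = 0.0106). Of 8 fibroblast, endothelial and adipocyte markers, DCN, CDH5 and ADIPOQ had no count, and the sum was 6.36 to 7.62 CPM after DSF/Cu and 2.18 to 3.55 CPM in DMSO, most of it COL1A1 (called higher, edgeR adjusted p = 0.0115). COL1A1 held 5.90, 5.39 and 6.92 CPM after DSF/Cu and 3.24, 1.49 and 2.04 CPM in DMSO, after DSF/Cu a CPM like that of HSCB, the lowest of the 9 genes. The part of these markers in the results was not tested. The 9 genes summed to 358 to 402 CPM after DSF/Cu and 359 to 413 CPM in DMSO.

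**Figure D1:**
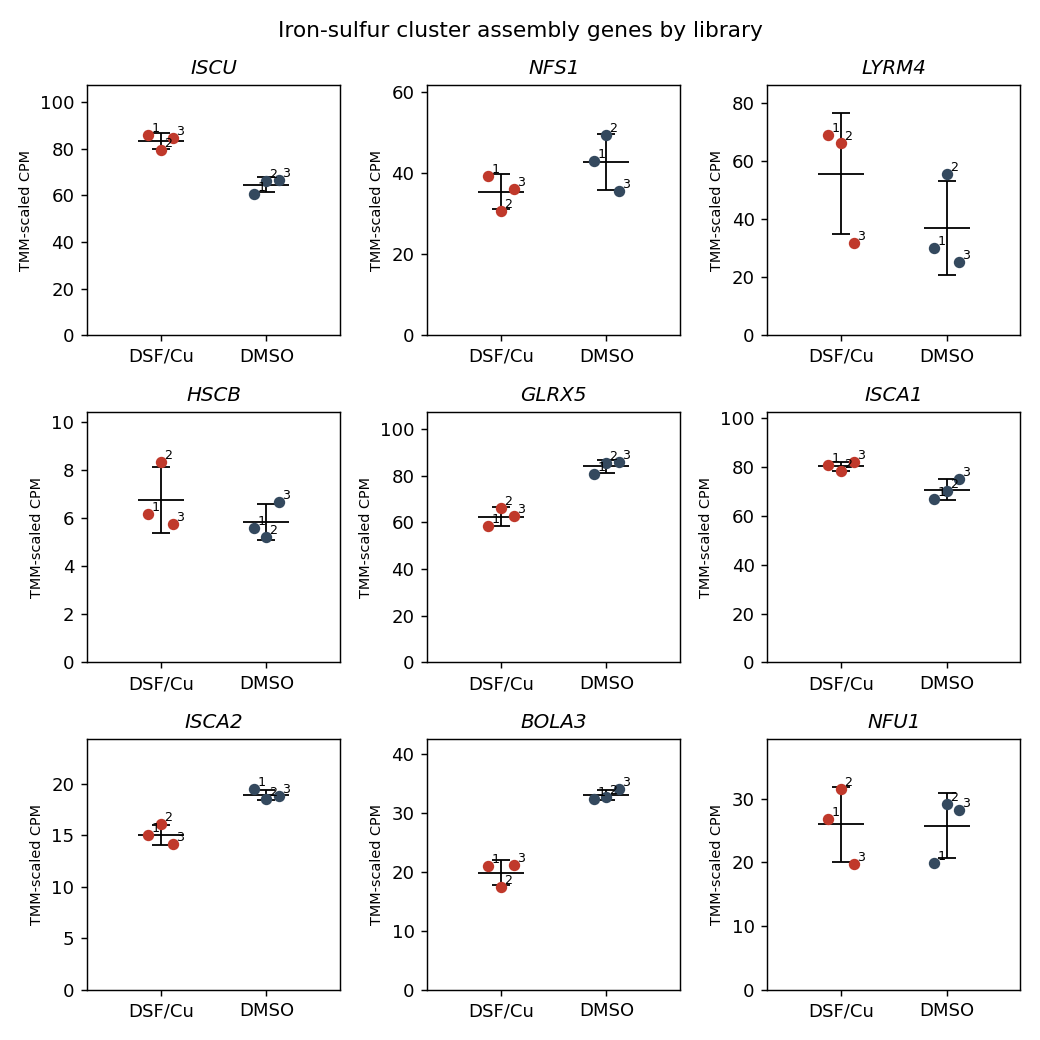
TMM-scaled CPM of each iron-sulfur cluster assembly gene (vertical axes start at 0) in the 3 DSF/Cu libraries (red, left) and the 3 DMSO libraries (dark, right), with replicate numbers; bars give the mean and SD. GLRX5, ISCA2 and BOLA3 lie lower in every DSF/Cu library than in any DMSO library, ISCU and ISCA1 lie higher (ISCA1 turns sign with total-count scaling), and the groups overlap for NFS1, LYRM4, HSCB and NFU1.

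The core of the machinery is the desulfurase complex and its scaffold. ISCU (ENSG00000136003, chr12:108562582-108569384, GRCh38, + strand) held 85.8, 79.5 and 84.5 CPM in DSF/Cu replicates 1 to 3, against 60.7, 66.2 and 66.5 CPM in DMSO. Every DSF/Cu library lay above every DMSO library. The log2 change was 0.37 ± 0.06 (SE; edgeR adjusted p = 0.00579). The call held with each library left out in turn (adjusted p from 0.0132 to 0.0213). The groups also stayed apart in the deposited FPKM, at 15.0 ± 0.533 after DSF/Cu and 13.1 ± 0.591 in DMSO (SD, n = 3 each). The rise was smaller on that scale, with a log2 change of 0.196 on log2(FPKM + 0.1) (limma adjusted p = 0.0378).

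NFS1 (ENSG00000244005, chr20:35668052-35699355, - strand) stood at 39.3, 30.8 and 36.3 CPM after DSF/Cu and at 43.1, 49.5 and 35.7 CPM in DMSO. DMSO replicate 3 fell inside the DSF/Cu range, and the groups overlapped. The log2 change of -0.27 ± 0.15 was not called (edgeR adjusted p = 0.202), although with total-count scaling it was -0.46 and called (adjusted p = 0.0413). NFS1 shares 84 bases with ROMO1 on the opposite strand. ROMO1 held 2195 to 2793 counts after DSF/Cu and 2903 to 3827 in DMSO. NFS1 held 1776 to 2219 after DSF/Cu and 2356 to 3317 in DMSO. The strand setting of the counting is not given in the sources used here, so reads of the shared stretch could belong to either gene.

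LYRM4 (ENSG00000214113, chr6:5102593-5260939, - strand), the small partner that keeps NFS1 stable, was the most uneven member. It held 69.1, 66.4 and 31.7 CPM after DSF/Cu and 30.3, 55.7 and 25.2 CPM in DMSO. DSF/Cu replicates 1 and 2 and DMSO replicate 2 were high and the other 3 libraries low, so the split cut across the treatment. The log2 change was 0.59 ± 0.39 (edgeR adjusted p = 0.297), the largest SE of the 9. Without DMSO replicate 2 it was 1.00 (adjusted p = 0.0934), and without DMSO replicate 3 it was 0.37 (adjusted p = 0.564). What sets the high and low libraries apart was not tested.

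Cluster release depends on a chaperone pair. HSCB (ENSG00000100209, chr22:28742039-28757510, + strand), the dedicated J-protein, was the least abundant member by CPM, with 6.17, 8.33 and 5.77 CPM after DSF/Cu and 5.59, 5.24 and 6.68 CPM in DMSO. The groups overlapped (log2 change 0.21 ± 0.19, edgeR adjusted p = 0.438). HSPA9, its partner and not among the 9 genes, rose to 1198, 1294 and 1158 CPM after DSF/Cu, against 650.9, 773 and 737.2 CPM in DMSO, a log2 change of 0.76 ± 0.08 (adjusted p = 6.99e-04). HSCB shares 384 bases with a gene on the opposite strand that held 412 to 538 counts after DSF/Cu and 766 to 1025 in DMSO. As the strand setting of the counting is not given, reads of the shared stretch could belong to either gene.

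GLRX5 (ENSG00000182512, chr14:95533503-95544714, + strand), which receives the cluster from the scaffold, held 58.6, 66.4 and 62.7 CPM after DSF/Cu and 80.8, 85.5 and 85.8 CPM in DMSO. The groups did not overlap. It fell by 0.43 ± 0.07 (log2, SE; edgeR adjusted p = 0.00386) and was called under all 13 alternatives, with log2 changes from -0.61 to -0.38. SNHG10, a non-coding gene on the opposite strand, shares 1370 bases with it. SNHG10 held 338 to 422 counts after DSF/Cu and 512 to 667 in DMSO, while GLRX5 held 3304 to 3834 after DSF/Cu and 5670 to 6159 in DMSO. With no strand setting given, reads of the shared stretch could belong to either gene.

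Among the late-acting factors, the proteins of ISCA1 and ISCA2 work as a complex. ISCA2 (ENSG00000165898, chr14:74493720-74497106, + strand) held 15.0, 16.1 and 14.1 CPM after DSF/Cu and 19.5, 18.5 and 18.8 CPM in DMSO. The groups did not overlap, and ISCA2 fell by 0.33 ± 0.09 (log2, SE; edgeR adjusted p = 0.0298). This call was the least stable of the 4. It was lost on leaving out DSF/Cu replicate 1 (adjusted p = 0.0738) or 3 (0.0898), or DMSO replicate 1 (0.0808), 2 (0.0681) or 3 (0.0707), while the log2 change stayed between -0.52 and -0.28 over all alternatives.

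ISCA1 (ENSG00000135070, chr9:86264546-86282538, - strand) held 80.7, 78.2 and 82.0 CPM after DSF/Cu and 66.9, 70.2 and 75.2 CPM in DMSO. Each DSF/Cu library lay above each DMSO library on this scale, yet the log2 change of 0.18 ± 0.06 was not called by edgeR (adjusted p = 0.0672), and DESeq2 called it (adjusted p = 0.00645). The direction rested on scaling: the deposited FPKM averaged 19.8 ± 0.625 after DSF/Cu and 19.6 ± 1.10 in DMSO (SD, n = 3 each), and with total-count scaling the log2 change was -0.00248. Of its processed pseudogenes in the table, ISCA1P1 carried 161 to 232 counts per library after DSF/Cu and 190 to 205 in DMSO, while ISCA1 held 4335 to 4555 after DSF/Cu and 4708 to 5097 in DMSO.

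BOLA3 (ENSG00000163170, chr2:74135400-74147912, - strand), which works with NFU1 and GLRX5 in handing clusters on, changed most among the called members. It held 21.0, 17.4 and 21.1 CPM after DSF/Cu and 32.3, 32.6 and 34.0 CPM in DMSO. The lowest DMSO library was well above the highest DSF/Cu library. BOLA3 fell by 0.73 ± 0.10 (log2, SE; edgeR adjusted p = 0.00199), and 9.98% of all genes tested had a lower log2 change. It was called under all 13 alternatives, with log2 changes from -0.92 to -0.64. Its 4 listed pseudogenes had no count, and an antisense gene that shares 241 bases with it had at most 8.

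NFU1 (ENSG00000169599, chr2:69395750-69437628, - strand), the carrier that brings clusters to lipoyl synthase and respiratory complexes, held 26.8, 31.5 and 19.7 CPM after DSF/Cu and 20.0, 29.2 and 28.2 CPM in DMSO. Each group had a library near the low end and the others above it, and the groups overlapped throughout. The log2 change was 0.01 ± 0.21 (edgeR adjusted p = 0.972), and its sign turned under 7 of the 13 alternatives.

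**Figure D2:**
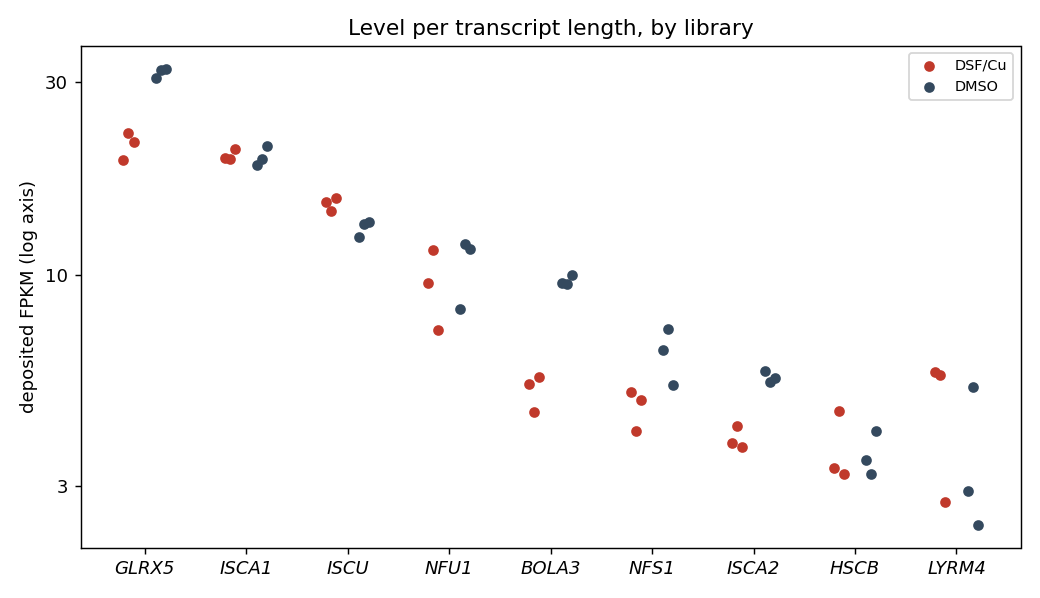
Deposited FPKM (log axis) of the 9 genes in the 3 DSF/Cu libraries (red, left of each pair) and the 3 DMSO libraries (dark, right), in order of the DMSO mean. GLRX5 leads clearly in DMSO, at 30.7 to 32.4 FPKM, and lies beside ISCA1 after DSF/Cu, at 19.2 to 22.4 FPKM.

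Levels per length (FPKM) can be set side by side between genes. FPKM was not TMM-scaled here. On log2(FPKM + 0.1) the median log2 change of all genes was -0.149, so FPKM differences between the groups are not those given above. After DSF/Cu the order was GLRX5, ISCA1, ISCU, NFU1, BOLA3, LYRM4, NFS1, ISCA2 and HSCB, and in DMSO it was GLRX5, ISCA1, ISCU, NFU1, BOLA3, NFS1, ISCA2, HSCB and LYRM4. GLRX5 averaged 21.0 ± 1.60 FPKM after DSF/Cu and 31.7 ± 0.882 FPKM in DMSO (SD, n = 3 each). Its range overlapped that of ISCA1 after DSF/Cu and was apart from it in DMSO. ISCU ranked 3 in every library. BOLA3 averaged 5.16 ± 0.529 FPKM after DSF/Cu and 9.67 ± 0.250 FPKM in DMSO. After DSF/Cu it overlapped NFS1, whose range it did not touch in DMSO, while in DMSO it overlapped NFU1, from which it was apart after DSF/Cu. The ranges of NFS1 and ISCA2 overlapped in both groups, as did those of HSCB and LYRM4.

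Ratios to ISCU within a library do not depend on scaling between libraries; ISCU was taken as the denominator after its values were seen, and it was itself higher after DSF/Cu. The FPKM of BOLA3 was 0.353, 0.316 and 0.360 of that of ISCU after DSF/Cu, against 0.770, 0.711 and 0.738 in DMSO. For GLRX5 the ratio was 1.40 ± 0.143 after DSF/Cu and 2.43 ± 0.0435 in DMSO (SD, n = 3 each). For ISCA2 it was 0.263 ± 0.0263 after DSF/Cu and 0.427 ± 0.0332 in DMSO. The NFS1 ratio was 0.313 ± 0.0267 after DSF/Cu and 0.490 ± 0.0833 in DMSO. Each ratio holds the rise of ISCU as well as the change of the other gene, so a lower ratio is a description and does not by itself show that the other gene fell.

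The genes nearest in pattern were sought for ISCU and NFS1 by Euclidean distance between log2 CPM centred on each gene's mean over the 6 libraries, among 13412 protein-coding genes. For ISCU they were CKS2, a subunit of cyclin-dependent kinases (distance 0.0653), RAB14, a GTPase of endosomal traffic (0.0727), and DPM1, a dolichol-phosphate mannose synthase subunit (0.0752). Their log2 changes were 0.34 ± 0.05, 0.34 ± 0.06 and 0.37 ± 0.07. For NFS1 they were CFAP298 (0.137), FAHD2B (0.145) and NUDT13 (0.158), none of which was called (edgeR adjusted p from 0.157 to 0.422).

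**Figure D3:**
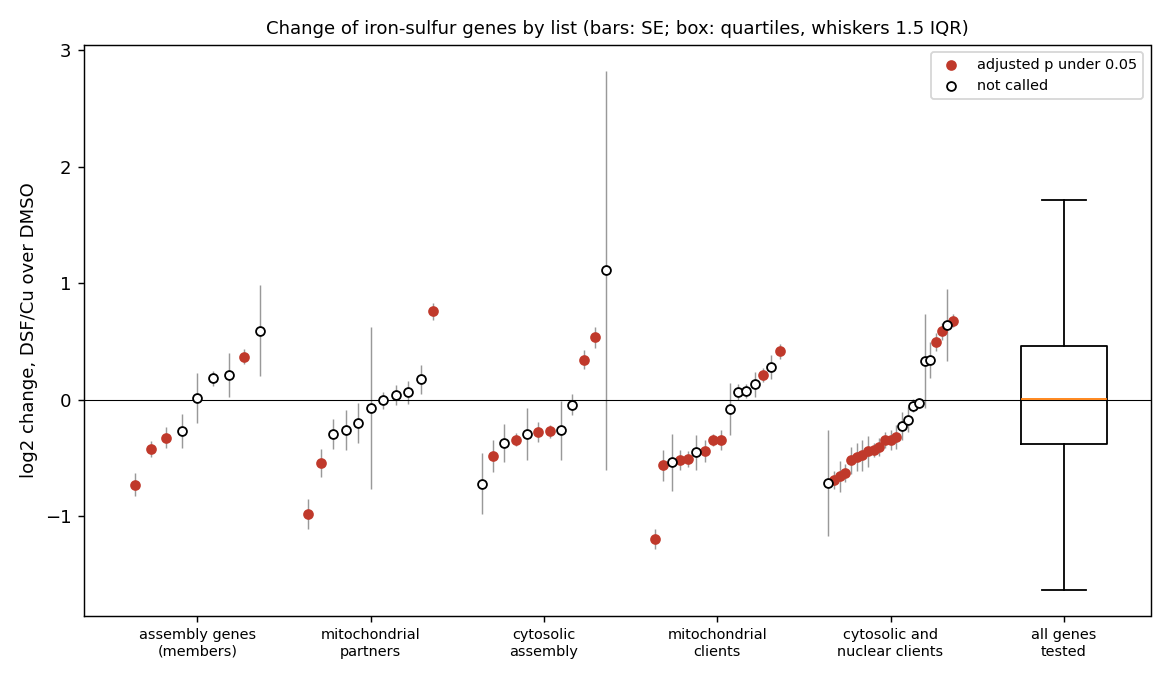
Log2 change (DSF/Cu over DMSO, vertical axis) of each tested gene of the 9 assembly genes and of 4 lists of the same pathway; filled points were called at an adjusted p under 0.05, bars give the SE, and the box shows all 18229 genes tested. The assembly genes straddle 0, with a median of 0.0121, and both client lists lie mostly under 0, with medians of -0.35.

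Of 11 partners that act with the 9 genes in mitochondria, 1 rose, 2 fell and 8 were not called, or 27.3% called against 35.2% of all genes tested. The one that rose was HSPA9, given above. FDXR, the reductase that passes electrons to ferredoxins, fell to 3.28, 3.41 and 3.14 CPM after DSF/Cu, against 6.68, 6.21 and 6.52 CPM in DMSO (log2 change -0.98 ± 0.13, edgeR adjusted p = 0.00177). NUBPL, which inserts clusters into complex I, was lower at 11.7 ± 1.35 CPM after DSF/Cu and 17.1 ± 0.901 CPM in DMSO (SD, n = 3 each; log2 change -0.55 ± 0.12, adjusted p = 0.0127). FDX2, the ferredoxin that FDXR reduces, was not called, with a log2 change of -0.26 ± 0.17 (edgeR adjusted p = 0.282). The median of the 11 was -0.0727.

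Of 12 genes of the cytosolic assembly pathway, which matures cytosolic and nuclear proteins, 2 rose, 4 fell and 6 were not called (median log2 change -0.28). That is 50% called, against 35.2% of all genes tested. Leaving out any 1 of DSF/Cu replicates 1 to 3 or DMSO replicate 2 cut the 4 to 2, and leaving out DSF/Cu replicate 2 cut the 2 to 1. NUBP1, a scaffold ATPase, rose by 0.53 ± 0.09 (edgeR adjusted p = 0.00581) and the glutaredoxin GLRX3 by 0.34 ± 0.08. The targeting subunits MMS19 and CIAO1 fell by 0.35 ± 0.05 and 0.27 ± 0.06, the reductase NDOR1 by 0.48 ± 0.14, and CIAO2A, another targeting subunit, by 0.28 ± 0.09 (adjusted p = 0.0477). BOLA2 and BOLA2B are near-identical copies whose counts cannot be assigned with certainty. BOLA2 alone ran from 2.32 to 42.5 CPM after DSF/Cu and from 0 to 30.9 CPM in DMSO, while the sum of both was 61.9, 61.7 and 79.6 CPM after DSF/Cu and 58.1, 62.0 and 70.7 CPM in DMSO.

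Proteins that carry the clusters were read from 2 lists. Of 16 mitochondrial clients, 2 rose and 7 fell (median log2 change -0.35), or 56.2% called against 35.2% of all genes tested, of which 16.8% were lower. On leaving out any library other than DMSO replicate 1, 1 in place of 2 rose. CISD3, a NEET-family protein of the mitochondrial matrix, fell to 20.7, 17.7 and 19.5 CPM after DSF/Cu, against 46.8, 43.4 and 42.5 CPM in DMSO (log2 change -1.20 ± 0.09, edgeR adjusted p = 2.27e-04). UQCRFS1, the Rieske protein of complex III, fell by 0.51 ± 0.07 and NDUFV2 of complex I by 0.35 ± 0.05. FDX1, a ferredoxin tied to lipoylation and to copper-dependent death, had 23.8 ± 0.479 CPM after DSF/Cu and 30.3 ± 2.34 CPM in DMSO (log2 change -0.35 ± 0.08). The tRNA-modifying CDK5RAP1 rose by 0.21 ± 0.06 (edgeR adjusted p = 0.036). LIAS, the lipoyl synthase that NFU1 and BOLA3 serve, had 6.80 ± 0.546 CPM after DSF/Cu and 9.31 ± 1.37 CPM in DMSO and was not called (log2 change -0.45 ± 0.15, adjusted p = 0.0557). SDHB of complex II was not called either (0.06 ± 0.07, adjusted p = 0.513).

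Of 25 cytosolic and nuclear clients, 23 were tested, XDH and RSAD2 being under the count filter. Of these 3 rose and 12 fell (median log2 change -0.35), or 65.2% called against 35.2% of all genes tested, of which 16.8% were lower. The rises were the primase subunit PRIM2 (0.68 ± 0.06), the tRNA methylthiotransferase CDKAL1 (0.59 ± 0.08) and the Elongator subunit ELP3 (0.50 ± 0.08). Among the falls were the helicases RTEL1 (-0.69 ± 0.08) and ERCC2 (-0.44 ± 0.06) and the polymerase subunit POLD1 (-0.63 ± 0.08). Without DSF/Cu replicate 1, 7 of the 23 were called lower. ACO1, the cytosolic aconitase that becomes the iron regulatory protein when it lacks its cluster, had 190.7 ± 2.43 CPM after DSF/Cu and 194.7 ± 5.07 CPM in DMSO (log2 change -0.03 ± 0.05, edgeR adjusted p = 0.665).

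**Figure D4:**
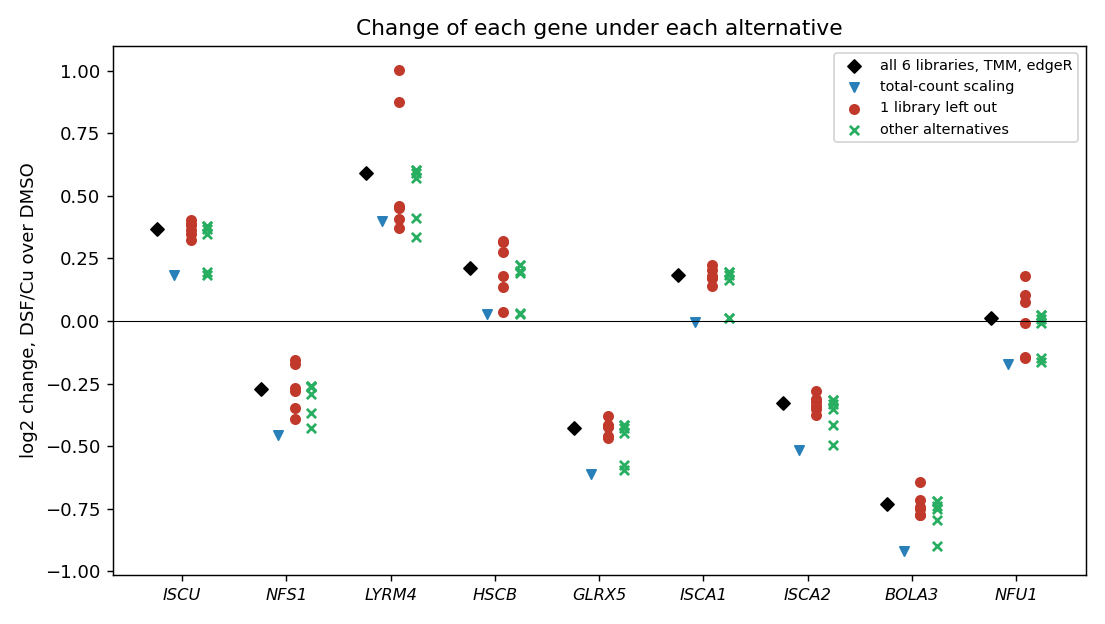
Log2 change (DSF/Cu over DMSO, vertical axis) of each of the 9 genes with TMM scaling of all 6 libraries, with total-count scaling, with each library left out, and under the other alternatives. BOLA3, GLRX5 and ISCA2 lie under 0 and ISCU above 0 under every alternative shown. Of the genes not called, NFS1 also stays under 0, and LYRM4 and HSCB stay above 0. NFU1 and ISCA1 have points on both sides of 0.

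Groups did not overlap in CPM for 5 of the 9 genes (ISCU, GLRX5, ISCA1, ISCA2 and BOLA3), or 55.6%, against 51.2% of all genes tested. The sizes were moderate: 73.6% of all genes tested had a smaller absolute log2 change than BOLA3, 51.2% a smaller one than GLRX5, 45.3% than ISCU and 41.0% than ISCA2. Shares of the genes tested that were called under the alternatives were 35% with RLE scaling, 39.6% with total counts and 45.7% by DESeq2. They were 39.9% by limma with either pseudocount and 28.2% with a replicate block. Without the filter 5720 of 29289 genes were called, or 19.5%, against 6424 of 18229 with it. With 1 library left out, 18929 to 19113 genes were tested. The shares were then 28.6%, 27.8% and 29.1% without DSF/Cu replicate 1, 2 or 3. Without DMSO replicate 1, 2 or 3 they were 28%, 26.5% and 27.3%. These are RNA levels in bulk cultures, in which fewer cells of a kind and less RNA per cell cannot be told apart.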

How the data were processed

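Poly(A) RNA from 3 DSF/Cu and 3 DMSO libraries was sequenced as paired ends. The submitters' processing notes list HISAT2 2.0, StringTie 1.3.0 and Bowtie 0.12.2 with no role, and the build mm8. Which counter, strand setting and annotation were used is not given in the sources used. The genes are human: 58552 of 58825 gene IDs occur in GENCODE 29, 58190 of them at the same place to within 1000 bases, so coordinates are read as GRCh38. Per the file headers, the deposited columns hold an unscaled read count and an FPKM value, scaled by the authors to transcript length and library size, for each library. Columns headed Control were taken as DMSO, the only control group in the labels.

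Genes were kept by filterByExpr (18229), scaled by TMM and tested two-sided with edgeR 4.0.16 (R 4.3.3) by the quasi-likelihood F test, with Benjamini-Hochberg adjustment over all genes tested and a threshold of 0.05; 8151 genes had an unadjusted p under 0.05. The SE is the absolute log2 change over the square root of F. CPM values are TMM-scaled. The steps were tested on simulated counts. Alternatives were RLE and total-count scaling, no filter, DESeq2 1.42.0, limma 3.58.1 on log2(FPKM + 1) and log2(FPKM + 0.1), each library left out, and a replicate block. Libraries of a group differed by a chi-square of 45.7 to 58.1 per degree of freedom over genes, so none is a copy.

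The 9 genes, the 4 other lists, the markers and the motifs were chosen with earlier results of these data known. Named were all 9 genes, 10 partners or clients whatever their result, up to 3 called genes in each direction per list, and 3 nearest genes each for ISCU and NFS1. CIAO2A was named outside that rule, after its value was seen. Some genes that the rule names are not reported here.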

Additional observations from a re-analysis of the deposited data

How the results depend on the processing

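GLRX5 and BOLA3 kept their direction and call under all 13 alternatives, and ISCU under 12 of them, total-count scaling being the exception (log2 change 0.183, edgeR adjusted p = 0.0556). Under that scaling the numbers called were 0 higher among the 9 genes, 1 higher in cytosolic assembly, 1 higher among mitochondrial clients and 4856 lower among all genes, and the medians were -0.173 for the 9 genes, -0.26 for mitochondrial partners, -0.461 for cytosolic assembly, -0.534 for mitochondrial clients, -0.532 for cytosolic and nuclear clients and -0.182 for all genes. DESeq2 called 2 of the 9 genes higher. With limma on log2(FPKM + 1) and on log2(FPKM + 0.1), 1 gene was called higher in cytosolic assembly and 1 among mitochondrial clients, and 4791 and 4727 of all genes were called lower; the cytosolic assembly median was -0.411 and -0.443. With the smaller pseudocount the medians were -0.164 for the 9 genes, -0.516 for mitochondrial clients, -0.507 for cytosolic and nuclear clients and -0.149 for all genes. Without the filter, 1 mitochondrial client was called higher and 2 cytosolic assembly genes lower. The sign turned for ISCA1 with total-count scaling (-0.00248), and for NFU1 with total-count scaling (-0.173), no filter (-0.00629), both FPKM fits (-0.149 and -0.164) and without DSF/Cu replicate 1 (-0.00669) or 2 (-0.145) or DMSO replicate 1 (-0.146), the range over libraries left out being -0.146 to 0.181. The cause of these shifts beyond the change of scale was not tested.

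Leaving out 1 library at a time gave 1 higher and 2 to 3 lower among the 9 genes (median -0.146 to 0.172). It gave 1 higher and 2 to 3 lower among mitochondrial partners (median -0.21 to -0.00145), 1 to 2 higher and 2 to 3 lower in cytosolic assembly (-0.289 to -0.226), 1 to 2 higher and 5 to 7 lower among mitochondrial clients (-0.383 to -0.321), and 3 to 4 higher and 7 to 10 lower among cytosolic and nuclear clients (-0.375 to -0.304). The 12 lowered cytosolic and nuclear clients became 7 without DSF/Cu replicate 1. The 4 lowered cytosolic assembly genes became 2 without any 1 of DSF/Cu replicates 1, 2 or 3 or DMSO replicate 2. The 2 raised cytosolic assembly genes became 1 without DSF/Cu replicate 2. The 2 raised mitochondrial clients became 1 without any 1 library except DMSO replicate 1. All genes gave 2786 to 2953 higher and 2284 to 2550 lower.

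Replicate numbers did not pair the libraries: deviations of same-numbered libraries correlated at 0.0214, -0.00775 and 0.0441 across genes. The replicate block gave 2692 genes higher and 2451 lower, 1 mitochondrial client higher, and no call for ISCA2 (adjusted p = 0.0702). DSF/Cu replicates 1 and 2 and DMSO replicate 2 correlated best with a library of another number.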
